A study of Mus musculus with 4 samples.

Results

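The genes of cyclic nucleotide turnover were examined in the stria vascularis (SV) of the mouse inner ear. They were chosen by symbol alone, as genes whose name begins with Pde and a digit, Adcy or Gucy, together with the kinase genes Prkaca, Prkacb, Prkar1a, Prkar2a, Prkar2b, Prkg1 and Prkg2. Of 27873 genes listed in both the cell and the nucleus data, 54 met this rule. Of these 54 genes, 36 had at least 30 unique molecular identifiers (UMIs, counts of single captured RNA molecules) over the 4 libraries and are described below. The other 18 genes had 0 to 29 UMIs each. At the limit, Pde11a with 30 and Pde1b with 32 UMIs were taken in, and Pde4c with 29 and Pde8b with 28 were not.

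The tissue came from CBA/J mice at postnatal day 30, and the sample records name neither a genetic change nor a treatment for any group. There were 3 captures of dissociated cells (scRNA-Seq) and 1 of nuclei (snRNA-Seq), made with the 10x Genomics Chromium system. Each capture was a suspension pooled from several animals, 12 for a suspension of cells and 10 for the nuclei as the sample records put it, so that no value belongs to a single mouse. The methods and the supplement of the study give other animal numbers, and the sources do not settle how many animals each pool held. The question addressed is in which of the 4 main SV cell types each enzyme was expressed.

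Cyclic AMP is made by adenylyl cyclases, is broken down by phosphodiesterases, and acts mainly through protein kinase A (PKA), in which regulatory subunits hold the catalytic subunits inactive until cyclic AMP binds. Cyclic GMP is made by guanylyl cyclases and acts through protein kinase G (PKG) and on some phosphodiesterases. Marginal cells secrete potassium into endolymph through the KCNQ1/KCNE1 channel, whose current is known to be raised by cyclic AMP, and in pigment cells, to which the intermediate cells belong, cyclic AMP is a known driver of pigment gene transcription.

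The 3 cell captures held 392 to 1580 barcodes and 2811309 to 8340882 UMIs, and the nucleus capture held 11057 barcodes and 22332501 UMIs. Between any pair of libraries 0 to 32 barcodes were shared. Clusters were named by their marker genes as marginal-like (119 cells, 2701 nuclei), intermediate-like (947 cells, 1486 nuclei), basal-like (114 cells, 688 nuclei) and spindle/root-like (39 cells, 190 nuclei), and are called by these types below. Of the cells kept, 57.1% stayed unnamed, as did 37.9% of the nuclei. The 12 marginal markers summed to 17543 to 18742 CPM (UMIs of a gene per 1000000 UMIs of the summed cells) in marginal cells and to at most 5863 in the other types. The 10 intermediate markers summed to 21940 to 30276 CPM in intermediate cells, but were also present in marginal cells at 6167 to 9177 CPM and in basal cells at 7850 to 12336 CPM. Fibrocyte markers were present in basal cells at 3278 to 4831 CPM.

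UMIs were summed over the cells of a type in each capture, and levels are given as CPM in captures 1, 2 and 3. The sums of spindle/root cells rest on 5, 18 and 16 cells. Among the 36 genes, 13 had counts high enough in the 12 sums to enter the test across all genes, and passing that filter is easier for a gene that is high in at least one type. In the quasi-likelihood test of edgeR, with p-values adjusted after Benjamini and Hochberg, 11 of these 13 differed among the 4 types, beside 58.9% of all 6066 genes tested. The 2 genes that did not pass were Prkaca (adjusted p = 0.387) and Prkar1a (adjusted p = 0.273), a catalytic and a regulatory subunit of PKA. Against the mean of the other 3 types, 5 genes were higher and 2 lower in marginal cells (16.5% and 14% of all genes tested), and 4 higher and 6 lower in intermediate cells (19.6% and 21.5%). In basal cells 2 were higher and 2 lower (15.7% and 13%), and in spindle/root cells 5 higher and 1 lower (16.7% and 8.98%). The median log2 fold change of the 13 genes was 0.20 in marginal, 0.01 in intermediate, -0.13 in basal and 0.09 in spindle/root cells, beside -0.01, -0.02, -0.03 and 0.02 for all genes tested. Of the 13 genes, 7 overlap an annotated gene on the opposite strand (Adcy2, Adcy6, Pde4d, Pde4dip, Pde6d, Prkacb and Prkar2a), and their values are uncertain to that extent. On the same strand, Pde1c overlaps Gm44413, Pde4d overlaps Rps3a3, Mir582 and Mir1904, and Pde4dip overlaps Mir7225, with the same limit. The methods name Cell Ranger at its default settings with the mm10 reference of 10x Genomics and do not mention strand.

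**Figure D1:**
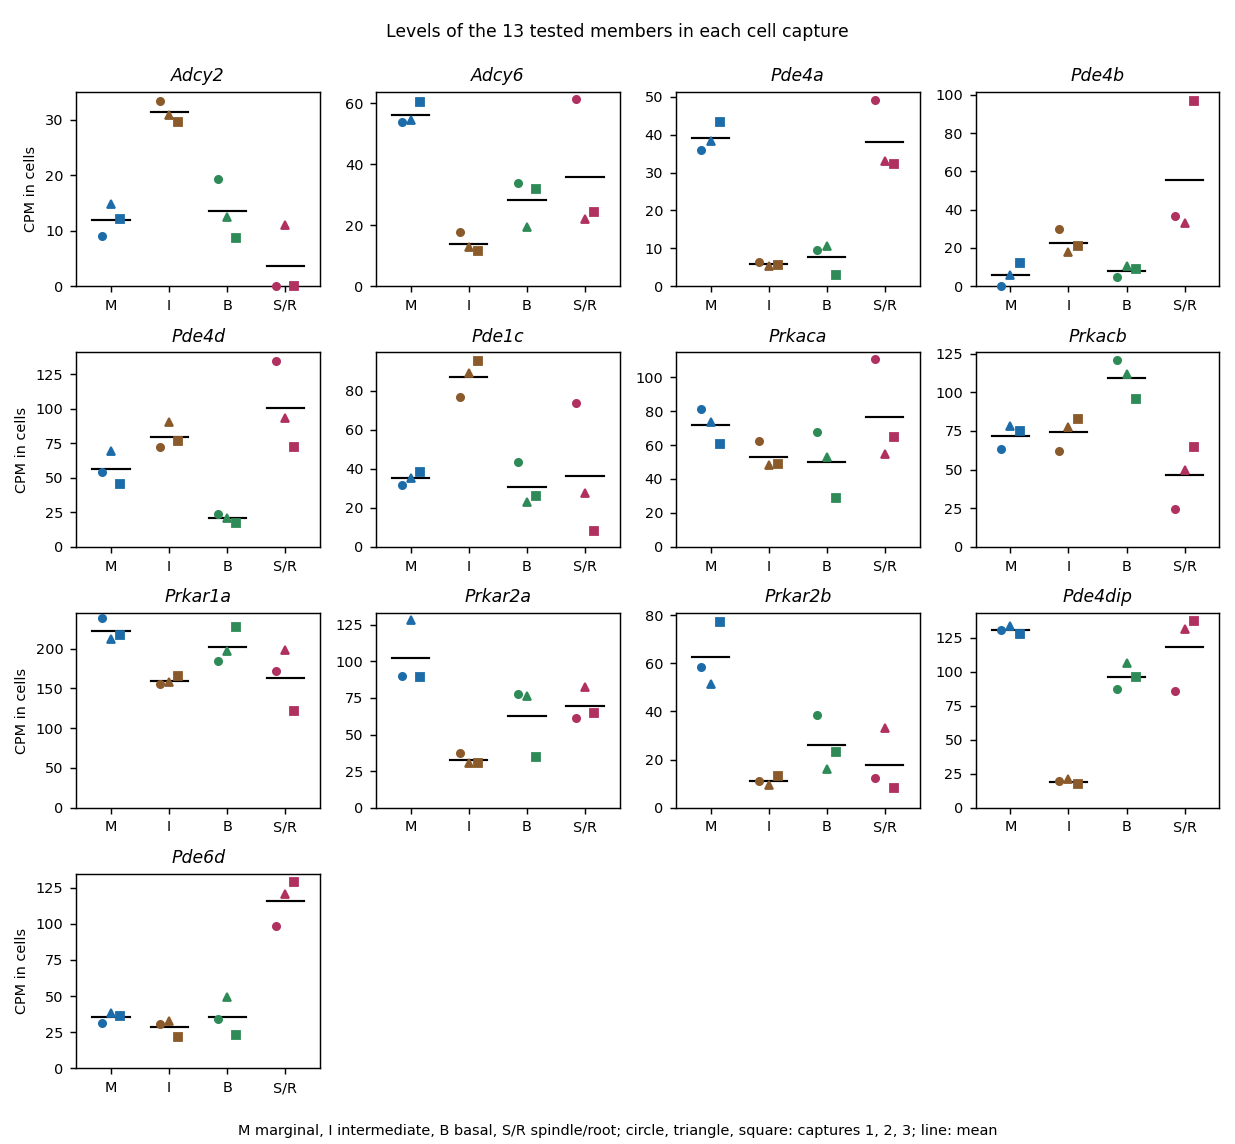
Level in CPM (vertical axis, linear from 0) of the 13 tested genes in the 4 SV cell types, with a symbol for each of the 3 cell captures and a line at their mean. Adcy2 and Pde1c were highest in intermediate cells in each capture, Prkar2a and Prkar2b in marginal cells, Prkacb in basal cells, and Pde4b and Pde6d in spindle/root cells.

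The upstream sequences of 4 genes are shown as examples of genes high in intermediate or marginal cells that had a RefSeq start site in the table used. Adcy2, Gucy2f and Pde4d were high in intermediate cells, and Prkar2b was highest in marginal cells. Each window holds the 250 bases before an annotated start site on GRCm38.p6, printed 5′ to 3′ on the strand of the gene. Capitals mark the E-box letters CACGTG or CATGTG, the ESRR letters AAGGTCA, or the core TGACG of the cyclic AMP response element, each searched on both strands.
Adcy2, chr13:68999542-68999791, minus strand: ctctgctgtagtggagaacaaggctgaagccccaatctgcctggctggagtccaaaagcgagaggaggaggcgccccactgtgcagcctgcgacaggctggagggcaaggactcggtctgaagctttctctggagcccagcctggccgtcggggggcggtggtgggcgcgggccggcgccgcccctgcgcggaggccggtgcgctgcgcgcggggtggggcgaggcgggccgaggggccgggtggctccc
Gucy2f, chrX:142196937-142197186, minus strand: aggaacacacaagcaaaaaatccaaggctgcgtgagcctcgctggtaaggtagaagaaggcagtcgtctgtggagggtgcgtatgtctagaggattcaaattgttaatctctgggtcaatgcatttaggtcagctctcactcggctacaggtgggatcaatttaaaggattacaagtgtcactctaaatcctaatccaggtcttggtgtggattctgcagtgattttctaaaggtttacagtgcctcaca
Pde4d, chr13:108653927-108654176, plus strand: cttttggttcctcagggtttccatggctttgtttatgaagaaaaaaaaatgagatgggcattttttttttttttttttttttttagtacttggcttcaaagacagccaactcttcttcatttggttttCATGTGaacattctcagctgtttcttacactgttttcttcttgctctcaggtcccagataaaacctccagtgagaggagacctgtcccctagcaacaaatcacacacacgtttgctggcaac
Prkar2b, chr12:32061278-32061527, minus strand: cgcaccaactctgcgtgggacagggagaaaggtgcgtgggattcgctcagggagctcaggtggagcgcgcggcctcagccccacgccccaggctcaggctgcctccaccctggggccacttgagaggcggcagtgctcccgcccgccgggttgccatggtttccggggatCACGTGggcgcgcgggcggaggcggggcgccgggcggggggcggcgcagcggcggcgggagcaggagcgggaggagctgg
The windows of Adcy2 and Gucy2f hold none of these letters, that of Pde4d holds CATGTG, and that of Prkar2b holds CACGTG. Other genes high in these types are not printed. Among them are Pde4a and Pde4b, each with a window that holds TGACG. Over all 32841 windows of the table, 6.02% hold CACGTG, 12.3% CATGTG, 4.08% AAGGTCA and 17.8% TGACG. Over the 55 windows of the 28 described genes that have one, the shares were 9.09%, 10.9%, 3.64% and 21.8%. The full element TGACGTCA, which contains TGACG on both strands, was in 1 of the 55 windows (1.82%) and in 1.55% of all windows. Adcy2 and Prkar2b have 73.2% and 75.6% G and C in their windows, and Gucy2f 45.2%. The window of Pde4d belongs to a start site within the gene rather than to its first annotated start, and gene counts do not tell which start was used.

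Of the 10 adenylyl cyclase genes, 8 had at least 30 UMIs, and Adcy2 and Adcy6 passed the filter. Adcy2 was highest in intermediate cells and Adcy6 in marginal cells. Adcy2, a membrane cyclase that G protein beta-gamma subunits stimulate, lies on chromosome 13 from 68620043 to 68999541 (mm10). Its level in intermediate cells was 33.4, 30.8 and 29.7 CPM. Marginal cells had 9.0, 14.7 and 12.1 CPM, basal cells 19.3, 12.4 and 8.72 CPM, and spindle/root cells 0, 11.0 and 0 CPM. The 3 intermediate sums lay above the 9 others, as they did for 5.18% of all genes tested. Against the mean of the other types Adcy2 was higher in intermediate cells by a log2 fold change of 2.00 ± 0.31 (SE, n = 3 captures, edgeR adjusted p = 4.31e-08), and the other 3 types did not differ from each other in any pair. In the nuclei the contrast was wider. Intermediate nuclei had 259 CPM (exact 95% Poisson interval 240 to 280, counting error only), and marginal nuclei had 6.32 CPM (4.23 to 9.08).

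Adcy6, a membrane cyclase that calcium inhibits, is on chromosome 15 from 98589973 to 98610076. Marginal cells had 54.0, 54.4 and 60.4 CPM, and intermediate cells 17.6, 12.7 and 11.6 CPM. Basal cells lay between them with 33.9, 19.5 and 32.0 CPM. The 3 captures of spindle/root cells were spread from 22.0 to 61.4 CPM, the highest being the sum of 5 cells, and overlapped with marginal cells. Adcy6 was higher in marginal cells (log2 fold change 1.23 ± 0.26 SE, edgeR adjusted p = 6.48e-05) and lower in intermediate cells (-1.13 ± 0.27, adjusted p = 0.00021). Nuclei had the same highest and lowest type, with 68.9 CPM (61.5 to 76.9) in marginal and 10.3 CPM (6.72 to 15.1) in intermediate nuclei. The intermediate level of Adcy2 and the marginal level of Adcy6 thus went in opposite directions between these types, and each difference passed the test of that pair (log2 fold change of marginal over intermediate cells -1.57 ± 0.34 and 1.78 ± 0.26, adjusted p = 7.16e-05 and 1.29e-08).

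The remaining adenylyl cyclases were too low in cells for the filter. Adcy1, which calmodulin stimulates, had 14.5, 12.4 and 14.5 CPM in basal cells. It had no UMI in marginal cells, where 3 UMIs would be 13.5, 4.41 and 7.25 CPM, and at most 5.49 CPM in any sum of the other types. Basal nuclei had 10.9 CPM (5.80 to 18.6) of Adcy1 and marginal nuclei 0.436 CPM (0.0528 to 1.57). Fibrocyte-like nuclei had 33.4 CPM (9.10 to 85.5), from 4 UMIs, and the part of the fibrocyte markers seen in basal cells in this result was not tested. Without the filter on low counts, edgeR gave Adcy1 an adjusted p of 0.000193 over the 4 types, and 30% of all 15468 genes passed in that fit. Adcy8, also stimulated by calmodulin, was seen mainly in nuclei, at 32.1 CPM in intermediate and 2.83 CPM in marginal nuclei. Adcy9, a widely expressed membrane cyclase, was close to even, at 69.7 to 91.3 CPM in the nuclei of the 4 types. Adcy10, the soluble cyclase that bicarbonate activates, ranged from 23.4 to 36.0 CPM in nuclei, and had no UMI in marginal or spindle/root cells. Adcy3 had 5.86 to 12.1 CPM in the nuclei of the 4 types, and its gene overlaps Cenpo on the opposite strand. Adcy7 had 3 UMIs in marginal and 2 in intermediate nuclei, and reached 35.9 CPM (20.1 to 59.3) in the 207 B cell-like nuclei.

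Of 8 phosphodiesterase genes that act on cyclic AMP, 6 had at least 30 UMIs and 3 were tested. All 3 differed among the types, beside 58.9% of all genes tested. They belong to the Pde4 family, the target of rolipram, and each had its own order of types. Pde4a was high in marginal and spindle/root cells, Pde4b in spindle/root and then intermediate cells, and Pde4d in every type but basal cells.

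Pde4a, on chromosome 9 from 21165714 to 21213248, had 36.0, 38.3 and 43.5 CPM in marginal cells and 49.1, 32.9 and 32.3 CPM in spindle/root cells. Intermediate cells had 6.49, 5.44 and 5.61 CPM, and basal cells 9.67, 10.6 and 2.91 CPM. The first 2 types overlapped with each other and with neither of the others. The share of all genes with such a split is not given here. Marginal cells were higher than intermediate cells by a log2 fold change of 2.45 ± 0.36 (SE, edgeR adjusted p = 1.26e-08) and than basal cells by 2.19 ± 0.50 (adjusted p = 0.000193). Marginal and spindle/root cells did not pass the test of their pair (0.17 ± 0.48 on the log2 scale, adjusted p = 0.85). The calls of Pde4a in spindle/root cells (1.38 ± 0.52, adjusted p = 0.0377) and in basal cells (-1.32 ± 0.50, adjusted p = 0.0364) were lost in 6 and in 8 of 12 alternatives. Both failed when any capture was left out, without the filter on low counts, at a clustering resolution of 0.4 and with at least 10 cells per sum, and the basal call also with DESeq2 and at a resolution of 1.2. In nuclei, Pde4a was highest in marginal nuclei at 59.1 CPM (52.2 to 66.5), and spindle/root nuclei had 18.2 CPM (6.67 to 39.6).

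Pde4b, on chromosome 4 from 102087543 to 102607259, had 36.8, 32.9 and 96.8 CPM in spindle/root cells and 29.7, 17.8 and 20.8 CPM in intermediate cells. Basal cells had 4.84, 10.6 and 8.72 CPM, and marginal cells 0, 5.89 and 12.1 CPM. Every spindle/root sum was above all the others, as was the case for 10.4% of all genes tested. The value of capture 3 was well above those of captures 1 and 2. The log2 fold change was 2.11 ± 0.47 in spindle/root cells (edgeR adjusted p = 0.000173) and -1.75 ± 0.50 in marginal cells (adjusted p = 0.0035). Without capture 3 the first was 1.65, and without capture 2 the second was -1.69, and neither then passed. The higher level in intermediate cells (0.77 ± 0.30, adjusted p = 0.0279) was lost in 6 of 12 alternatives, which were DESeq2, no TMM scaling, the fits without capture 1 or 2, and resolutions of 0.4 (where it was 0.39) and 1.2. The nuclei had the same order of types at far higher CPM. Spindle/root nuclei had 5721 CPM (5466 to 5985), intermediate nuclei 1116 CPM (1076 to 1158), basal nuclei 190 CPM (166 to 217) and marginal nuclei 37.5 CPM (32.1 to 43.5).

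Pde4d, on chromosome 13 from 108449948 to 109953461, had 25210 UMIs over the 4 libraries. Its level was 135, 93.3 and 72.6 CPM in spindle/root cells, 72.3, 90.3 and 76.6 CPM in intermediate cells and 54.0, 69.2 and 45.9 CPM in marginal cells. Basal cells had 24.2, 21.3 and 17.4 CPM, below all 9 other sums, as was the case for 2.18% of all genes tested. Pde4d was lower in basal cells by a log2 fold change of -1.92 ± 0.28 (SE, edgeR adjusted p = 1.33e-08) and higher in intermediate cells by 1.05 ± 0.16 (adjusted p = 3.38e-08). Its higher level in spindle/root cells (0.88 ± 0.29, adjusted p = 0.0141) was lost without capture 1 or 2, without the filter on low counts and with at least 10 cells per sum. Basal nuclei also had the lowest level, 752 CPM (704 to 803), beside 2229 in marginal, 2392 in intermediate and 5666 CPM in spindle/root nuclei.

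Among the other phosphodiesterases of cyclic AMP, Pde7b had 7.42, 11.6 and 10.0 CPM in intermediate cells and 1.83 to 5.11 CPM as means of the other types. Nuclei had 512 CPM in spindle/root, 447 in intermediate, 217 in marginal and 97.1 in basal nuclei, and fibrocyte-like nuclei had 509.5 CPM (390 to 655). Pde8a, an enzyme of high affinity, had 7.42, 6.89 and 13.6 CPM in intermediate cells and 17.4 CPM (12.7 to 23.4) in intermediate nuclei, beside 1.09 CPM (0.354 to 2.54) in marginal nuclei. Fibrocyte-like nuclei had 41.8 CPM (13.6 to 97.5) of Pde8a, from 5 UMIs. Pde7a differed little, with 20.1 to 33.3 CPM in the nuclei of the 4 types, and B cell-like nuclei had 86.3 CPM (60.4 to 119). Without the filter on low counts, Pde7b (edgeR adjusted p = 0.0298) and Pde8a (adjusted p = 0.02) passed over the 4 types and Pde7a (adjusted p = 0.875) did not. In that fit the log2 fold change of Pde8a was 2.66 in intermediate cells (edgeR adjusted p = 0.00547) and 2.04 in basal cells (adjusted p = 0.282).

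Of 8 phosphodiesterase genes that act on both nucleotides, 7 had at least 30 UMIs and only Pde1c was tested. Pde1c, which calcium and calmodulin activate, lies on chromosome 6 from 56069804 to 56569103. Intermediate cells had 76.9, 89.2 and 95.4 CPM, marginal cells 31.5, 35.3 and 38.7 CPM and basal cells 43.5, 23.0 and 26.2 CPM. Spindle/root cells varied the most, with 73.6, 27.5 and 8.06 CPM. All 3 intermediate sums were above the 9 others, as was the case for 5.18% of all genes tested. The log2 fold change of intermediate cells was 1.78 ± 0.18 (SE, edgeR adjusted p = 1.3e-14), and the other types did not differ in any pair. Intermediate nuclei had 1299 CPM (1255 to 1344), spindle/root nuclei 164 CPM, basal nuclei 115 CPM and marginal nuclei 15.9 CPM (12.5 to 20.0).

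The level of genes found mainly in intermediate nuclei is given here beside Adcy2, Pde1c and Gucy2f. A set of 75 genes was chosen as at least 20 times as high in intermediate as in marginal nuclei, and included Dct, Tyr and Met. In marginal cells these genes summed to 29.7%, 27.2% and 28.0% of their level in intermediate cells in captures 1, 2 and 3. In spindle/root cells, 21 genes chosen in the same way against spindle/root nuclei summed to 8.28%, 19.7% and 8.95%. In the other direction, 23 genes of marginal nuclei, among them Esrrb, had 2.83% of their marginal level in intermediate cells. No such set is given for basal cells, where too few genes met the rule, though intermediate markers summed to 7850 to 12336 CPM there. The source of these transcripts and its part in the levels of Adcy2, Pde1c and Gucy2f in marginal, basal and spindle/root cells were not tested.

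The 6 other genes of this class were low in the 4 types. Pde3a was seen mainly in intermediate nuclei, at 11.1 CPM, and Pde10a was highest in spindle/root nuclei, at 39.4 CPM. Pde1a had 3.03 to 4.58 CPM in nuclei of the 4 types and 167 CPM (102 to 258) in the 60 fibrocyte-like nuclei. Pde3b had at most 3.35 CPM in nuclei of the 4 types and 64.7 CPM (42.6 to 94.1) in B cell-like nuclei. Pde1b, with 32 UMIs in all, had 4.79 CPM on average in marginal cells and no UMI in intermediate or basal cells. Pde11a had 1 UMI each in marginal and intermediate cells, and 0.837 to 3.03 CPM in nuclei.

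**Figure D2:**
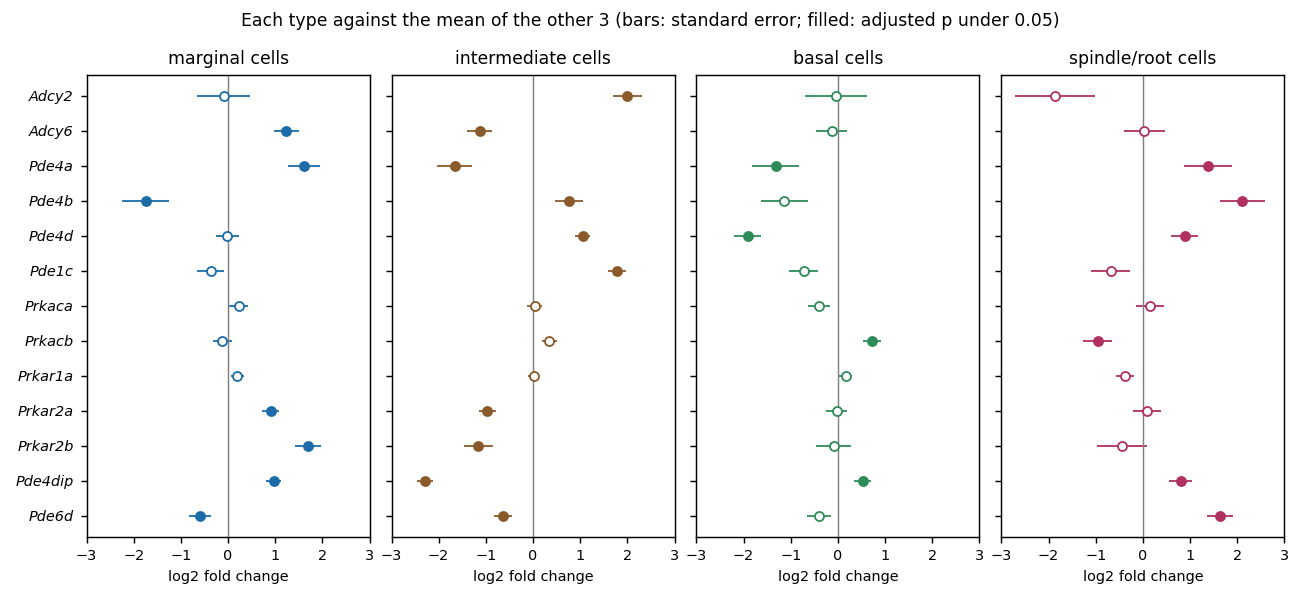
Log2 fold change (horizontal axis) of each tested gene in 1 type against the mean of the other 3, with the standard error as a bar and filled points where the adjusted p was under 0.05. Of the genes that passed in intermediate cells, Adcy2, Pde1c, Pde4d and Pde4b lay above 0 and the other 6 below it, with Pde4dip lowest at -2.29.

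All 5 PKA genes had at least 30 UMIs and all 5 were tested. Of these, 3 differed among the types, which is near the 58.9% of all genes tested. The regulatory subunits Prkar2a and Prkar2b had their highest mean in marginal cells and their lowest in intermediate cells, though not every pair of types passed. The catalytic subunit Prkacb was highest in basal cells. Prkar1a, a further regulatory subunit, and Prkaca, the other catalytic subunit, did not pass the test, with means of 160 to 223 CPM for Prkar1a and 50.0 to 76.6 CPM for Prkaca.

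Prkar2b, on chromosome 12 from 31958476 to 32061296, had 58.5, 51.5 and 77.3 CPM in marginal cells and 11.1, 9.43 and 13.2 CPM in intermediate cells. Basal cells had 38.7, 15.9 and 23.3 CPM, and spindle/root cells 12.3, 32.9 and 8.06 CPM. No other sum reached those of marginal cells, and such a gap held for 7.8% of all genes tested. Prkar2b was higher in marginal cells by a log2 fold change of 1.69 ± 0.28 (SE, edgeR adjusted p = 2.57e-07), and marginal cells passed against each single type. Its lower level in intermediate cells (-1.16 ± 0.31, adjusted p = 0.00117) did not pass without capture 2 or at a resolution of 0.4, where it was -0.72. Intermediate cells did not pass the pair test against basal cells (edgeR adjusted p = 0.0925) or spindle/root cells (adjusted p = 0.53). Marginal nuclei had 71.5 CPM (64.0 to 79.7) and intermediate nuclei 18.2 CPM (13.3 to 24.3). Erythroid-like nuclei also had 53.0 CPM (45.0 to 61.9).

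Prkar2a, on chromosome 9 from 108689314 to 108750436, had 90.0, 128 and 89.4 CPM in marginal cells. Intermediate cells had 37.1, 30.5 and 30.9 CPM, basal cells 77.4, 76.2 and 34.9 CPM, and spindle/root cells 61.4, 82.4 and 64.5 CPM. The marginal sums were above all the others, though captures 1 and 3 only narrowly, and such a gap held for 7.8% of all genes tested. The log2 fold change was 0.90 ± 0.19 in marginal cells (SE, edgeR adjusted p = 4.35e-05) and -0.97 ± 0.18 in intermediate cells (adjusted p = 3.34e-06). At a clustering resolution of 0.4 the latter was -0.36 and did not pass (adjusted p = 0.198). Marginal and spindle/root cells did not pass the test of their pair (0.61 ± 0.30, edgeR adjusted p = 0.15). Nuclei did not have the same order. Basal nuclei were highest at 61.1 CPM (47.9 to 76.9), followed by marginal nuclei at 42.7 CPM (36.9 to 49.1) and intermediate nuclei at 34.0 CPM (27.2 to 42.1).

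Prkacb, on chromosome 3 from 146729574 to 146812990, had 121, 112 and 95.9 CPM in basal cells, above the other 9 sums, as was the case for 6.76% of all genes tested. Marginal cells had 63.0, 78.0 and 74.9 CPM and intermediate cells 62.1, 77.3 and 82.6 CPM, and these 2 types overlapped fully. Spindle/root cells had 24.5, 49.4 and 64.5 CPM. The difference was small in basal cells (log2 fold change 0.73 ± 0.19 SE, edgeR adjusted p = 0.00175), and basal and intermediate cells did not pass the test of their pair (0.29 ± 0.18, adjusted p = 0.209). The lower level in spindle/root cells (-0.96 ± 0.31, adjusted p = 0.014) was lost without capture 1 or 2, without TMM scaling and with at least 10 cells per sum. Nuclei showed almost no spread, with 40.0 to 44.4 CPM in the 4 types.

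Of the guanylyl cyclases and the PKG genes, 4 of 11 had at least 30 UMIs and none passed the filter on low counts. Gucy2f, a membrane guanylyl cyclase known from photoreceptors, was found in intermediate cells, and Prkg1, the PKG gene expressed in smooth muscle among other tissues, in intermediate nuclei. The beta subunit of the nitric oxide receptor, Gucy1b3, was found in basal cells.

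Gucy2f, on chromosome X from 142081160 to 142196931, overlaps no other annotated gene. Intermediate cells had 24.1, 27.2 and 20.8 CPM, from 26, 75 and 52 UMIs. Marginal cells had 0, 10.3 and 12.1 CPM, basal cells 4.84, 5.31 and 2.91 CPM, and spindle/root cells 0, 16.5 and 0 CPM. Every intermediate sum was above those of the other types. The share of such gaps among genes that the filter left out is not given here. In spindle/root cells 3 UMIs would be 36.8, 16.5 and 24.2 CPM in captures 1, 2 and 3, so a level like that of intermediate cells could be missed there. Without the filter on low counts, the log2 fold change in intermediate cells was 2.17 (edgeR adjusted p = 5.57e-09). Intermediate nuclei had 147 CPM (133 to 163), spindle/root nuclei 75.7 CPM (49.0 to 112), marginal nuclei 35.3 CPM (30.1 to 41.2) and basal nuclei 14.2 CPM (8.29 to 22.8).

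Gucy1b3 had 29.0, 30.1 and 14.5 CPM in basal cells and at most 4.50 CPM in any sum of marginal or intermediate cells. No UMI was seen in spindle/root cells, where 3 UMIs would be 36.8, 16.5 and 24.2 CPM, so that a level like that of basal cells was not detectable in captures 1 and 3. Without the filter, the log2 fold change in basal cells was 5.66 (edgeR adjusted p = 5.36e-11). Basal nuclei had 13.4 CPM (7.66 to 21.8) and marginal nuclei 0.654 CPM (0.135 to 1.91), and fibrocyte-like nuclei 16.7 CPM (2.02 to 60.3) from 2 UMIs. Gucy1a2, an alpha subunit of the same receptor, had no UMI in the cells of the 4 types and 10.0 CPM in basal nuclei, beside 33.4 CPM (9.10 to 85.5) in fibrocyte-like nuclei.

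Prkg1, on chromosome 19 from 30564489 to 31765033, had 1.85, 6.17 and 8.42 CPM in intermediate cells and 4.84, 1.77 and 14.5 CPM in basal cells, which overlapped. Marginal cells had a single UMI in all, and spindle/root cells none. Its level in intermediate nuclei was 1195 CPM (1153 to 1238), from 3018 UMIs, beside 139 CPM in spindle/root, 127 CPM in basal and 30.7 CPM in marginal nuclei. Fibrocyte-like nuclei had 493 CPM (375 to 636). Without the filter on low counts the cells gave Prkg1 a log2 fold change of 2.82 in intermediate cells (edgeR adjusted p = 0.0149). In that fit it was 2.62 in basal cells (edgeR adjusted p = 0.163), which had the highest mean CPM in cells. In spindle/root cells 1 UMI is 5.49 to 12.3 CPM, so levels like those of intermediate cells could be missed there.

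Phosphodiesterases of cyclic GMP were low. Pde5a had 2.83 to 10.3 CPM in the nuclei of the 4 types and 100.2 CPM (51.8 to 175) in fibrocyte-like nuclei. Pde9a had 21.6 CPM in marginal nuclei and at most 0.792 CPM in intermediate and basal nuclei. Spindle/root nuclei had 5 UMIs of Pde9a, where 1 UMI is 3.03 CPM. In cells the mean of Pde9a was highest in spindle/root cells, from 2 UMIs. Pde6a, a catalytic subunit of the photoreceptor enzyme, had 33.3 CPM in spindle/root nuclei and 10.9 CPM in marginal nuclei.

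**Figure D3:**
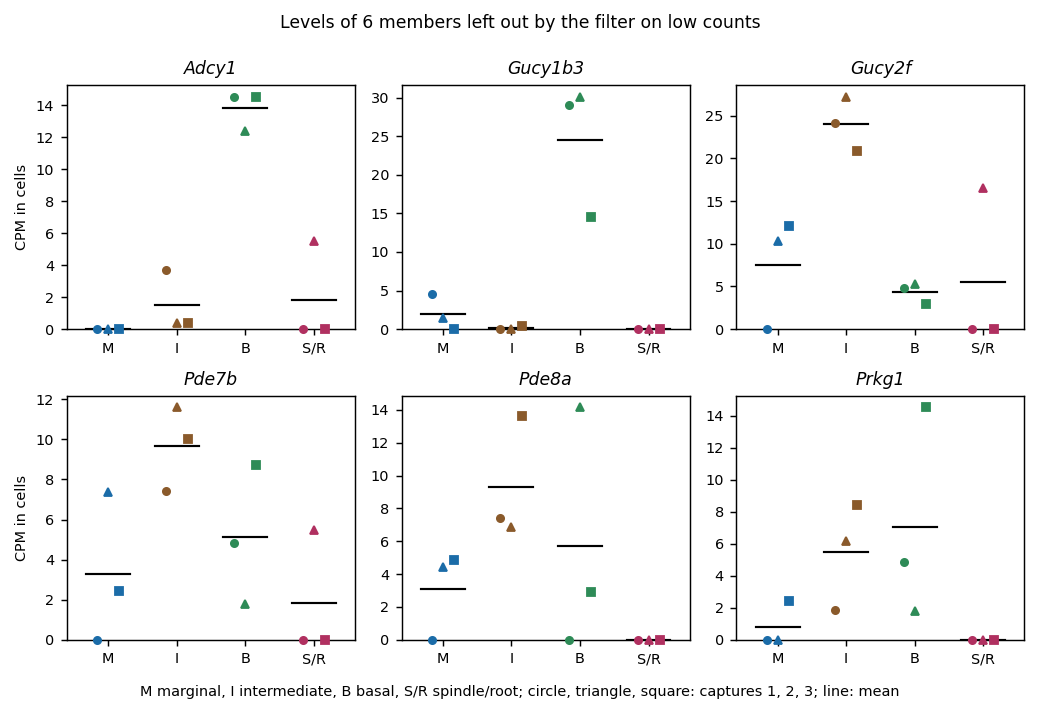
Level in CPM (vertical axis, linear from 0) of 6 genes that the filter on low counts left out and that passed without it, with a symbol for each of the 3 cell captures and a line at their mean. Gucy2f had 20.8 to 27.2 CPM in intermediate cells, and Adcy1 and Gucy1b3 were above the other types in each basal sum. The share of such gaps among genes that the filter left out is not given here.

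The rule also takes in genes that share the name but are not cyclic nucleotide phosphodiesterases. Pde4dip, a scaffold protein of the Golgi and centrosome, had 131, 134 and 128 CPM in marginal cells and 19.5, 21.0 and 17.2 CPM in intermediate cells. Basal cells had 87.0, 106 and 95.9 CPM and spindle/root cells 85.9, 132 and 137 CPM. The intermediate sums lay far below all 9 others, as 10.4% of all genes did, with a log2 fold change of -2.29 ± 0.17 (SE, edgeR adjusted p = 1.53e-21). The nuclei had 516 CPM in marginal and 55.8 CPM in intermediate nuclei. Pde4dip was higher in marginal cells than the mean of the other types (0.96 ± 0.16, adjusted p = 9.21e-07). Marginal cells did not pass the pair test against spindle/root (0.12 ± 0.25, edgeR adjusted p = 0.776) or basal cells (0.33 ± 0.20, adjusted p = 0.213). The smaller calls of Pde4dip in spindle/root (0.80 ± 0.24) and basal cells (0.53 ± 0.18) were both lost without capture 2 or 3 and at a resolution of 0.4. The first was also lost without the filter on low counts and the second with doublets kept. Pde6d, a chaperone of prenylated proteins, had 98.2, 121 and 129 CPM in spindle/root cells and 22.0 to 49.6 CPM in the 9 other sums. Its log2 fold change in spindle/root cells was 1.63 ± 0.28 (adjusted p = 6.98e-07), and spindle/root nuclei were also highest at 72.7 CPM (46.6 to 108). Pde6d was lower in intermediate (-0.64 ± 0.18, adjusted p = 0.00274) and marginal cells (-0.60 ± 0.24, adjusted p = 0.0479), the first of which was lost without capture 2 or 3 and the second in 8 of 12 alternatives, among them DESeq2 and each fit without a capture. Such a gap of the 3 spindle/root sums held for 10.4% of all genes tested. Pde12, an exonuclease of mitochondrial RNA, had means of 2.69 to 15.5 CPM in the 4 types and did not pass without the filter (adjusted p = 0.3). Adcyap1 and its receptor gene Adcyap1r1, which encode the peptide PACAP and its receptor, had 1 and 4 UMIs.

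In pairs of types, 9 of the 13 genes differed between marginal and intermediate cells (38.2% of all genes tested), 8 between intermediate and spindle/root cells (34.3%), 6 between intermediate and basal cells (34.9%) and 6 between marginal and basal cells (33.4%). Basal and spindle/root cells differed in 5 (27.3%) and marginal and spindle/root cells in 3 (21.9%), which were Pde4b, Prkar2b and Pde6d. Between marginal and intermediate cells, 5 genes were higher in marginal cells (19.7% of all genes) and 4 in intermediate cells (18.5%). The 5 were Adcy6, Pde4a, Prkar2a, Prkar2b and Pde4dip, and the 4 were Adcy2, Pde1c, Pde4b and Pde4d.

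The nuclei are a single library, so their levels carry no test. These levels are given at a clustering resolution of 0.8, where 1486 nuclei were named intermediate, beside 3573 at 0.4. The nuclei left unnamed at 0.8 had 14.0 CPM of Adcy2, 35.8 CPM of Pde1c and 114 CPM of Prkar2a. How far the nuclear levels depend on this cut was not tested. For 11 of the 13 tested genes, the type with the highest mean in cells was also the highest in nuclei. These means are of CPM without TMM scaling. Among the 11, Pde4d had its highest mean in spindle/root cells, but the fit put them slightly below intermediate cells (log2 fold change -0.13 ± 0.26). Prkacb showed almost no spread in nuclei. The exceptions were Prkar2a, given above, and Prkaca, which was highest in spindle/root cells and in intermediate nuclei, where it had 41.2 CPM (33.6 to 49.9). The share of all genes tested with the same highest type in both is not given here, so the count of 11 describes these 13 genes only. The nucleus data list more genes than the cell data, of which 27873 are in both, and neither the annotation behind the longer list nor the counting of introns is given in the sources used here. A ratio of nuclear to cell CPM therefore cannot be told apart from a difference in gene models. Many of the long genes had far more CPM in nuclei than in cells. In intermediate cells, the ratio of nuclear to cell CPM was 189 for Prkg1, whose gene spans 1201 kb, 53.1 for Pde4b (520 kb), 43.5 for Pde7b (327 kb) and 29.2 for Pde4d (1504 kb). It was below 1 for the compact Adcy6 and Prkar1a, of 20.1 and 20.3 kb. As a description, Spearman's rho of this ratio with gene length was 0.86 over 25 genes in intermediate, 0.75 over 16 genes in basal, 0.95 over 8 genes in spindle/root and 0.39 over 15 genes in marginal cells, with all points of a type from the same libraries. For Adcy2 and Pde1c the nuclear level in marginal cells was below that in cells, whereas in intermediate cells it was 8.42 and 14.5 times as high.

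**Figure D4:**
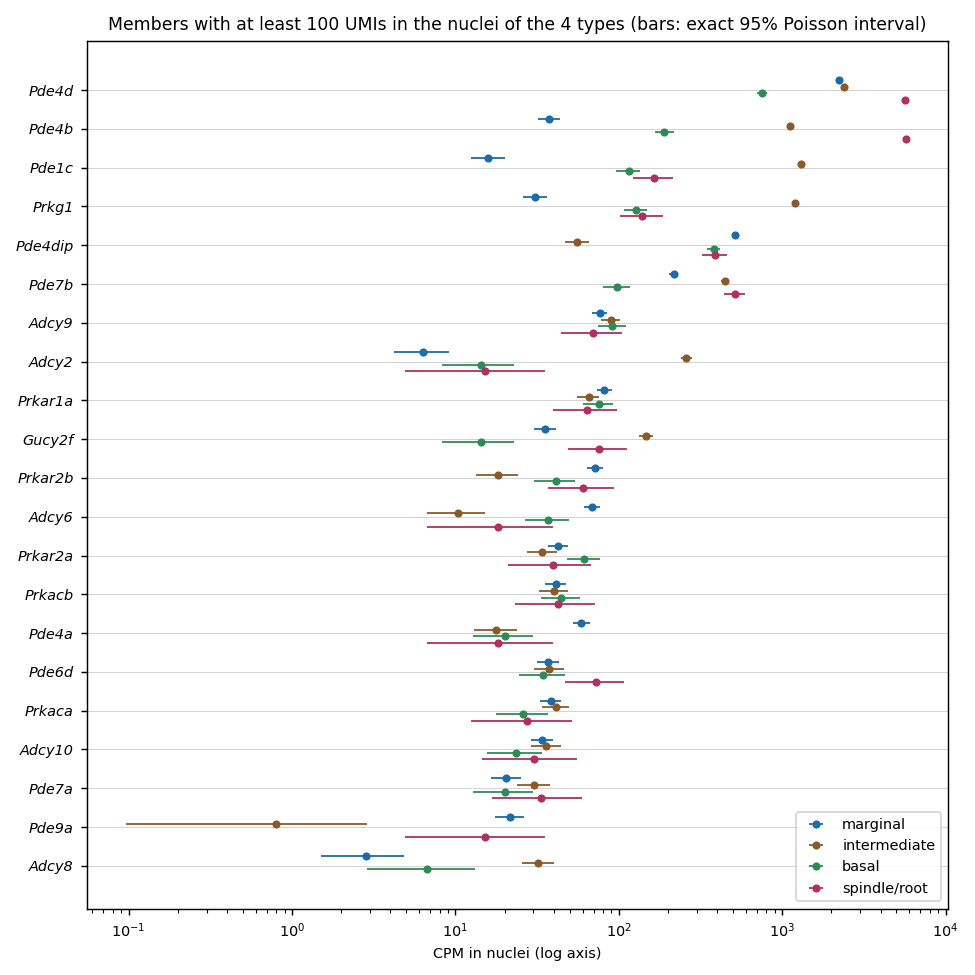
Level in CPM in nuclei (horizontal log axis) of the 21 genes with at least 100 UMIs in the nuclei of the 4 types, with exact 95% Poisson intervals of counting error as bars and types with no UMI left out. Pde4b ran from 37.5 CPM in marginal to 5721 CPM in spindle/root nuclei, whereas Prkacb lay between 40.0 and 44.4 CPM in all 4 types.

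**Figure D5:**
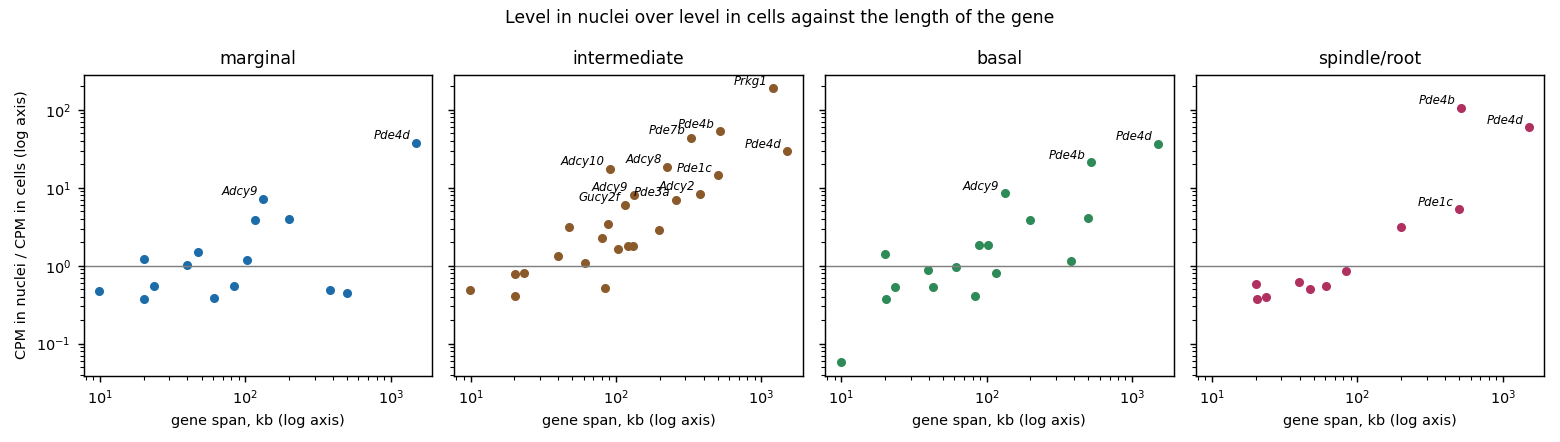
Ratio of the CPM in nuclei to the pooled CPM in cells (vertical log axis) against the length of the gene in kb (horizontal log axis), for genes with at least 10 UMIs in the cells of a type. In intermediate cells Prkg1 stands highest at 189, and the shortest genes lie near or below the line at 1.

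Other genes of the pathway, 80 from a list of receptors, G proteins, anchoring proteins and targets, were counted in the same fit. Of these, 27 passed the filter and 18 differed among the 4 types, beside the 58.9% of all genes. Against the mean of the other types, 4 of the 27 were higher and 4 lower in marginal cells (16.5% and 14% of all genes tested), and 7 higher and 9 lower in intermediate cells (19.6% and 21.5%). In basal cells 7 were higher and 2 lower (15.7% and 13%), and in spindle/root cells 3 higher and 3 lower (16.7% and 8.98%). Of 20 receptors that act through cyclic AMP, only 3 were tested, and these 3 differed among the types, beside the same 58.9%. Ptger3, a prostaglandin E receptor coupled to inhibition of adenylyl cyclase, had 67.5, 60.3 and 89.4 CPM in marginal cells and 1.60 to 2.78 CPM in intermediate cells (log2 fold change 3.59 ± 0.33 SE, edgeR adjusted p = 1.13e-16). Adora1, the adenosine receptor that is likewise inhibitory, was also highest in marginal cells (2.46 ± 0.33), as was Abcc4, which exports cyclic AMP (1.97 ± 0.38).

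Of 16 exchange factors and channels gated by cyclic nucleotides, 3 were tested and 2 differed among the types. Of 8 transcription factors and coactivators, 6 were tested and 2 differed. The share over all genes tested was 58.9%. Rapgef4, an exchange factor that cyclic AMP activates, had 334, 324 and 346 CPM in intermediate cells, 60.4 to 122 CPM in marginal cells and 1669 CPM in intermediate nuclei (log2 fold change 2.44 ± 0.23, edgeR adjusted p = 4.35e-07). The related Rapgef3 was higher in both basal (1.64 ± 0.16) and intermediate cells (1.50 ± 0.14), which did not pass the test of their pair (0.10 ± 0.14, adjusted p = 0.604), and intermediate nuclei were highest. The transcription factor Atf1 was highest in intermediate cells (1.11 ± 0.22). Basal cells had the highest levels of the PKA-regulated phosphatase inhibitors. Ppp1r1a had 546, 648 and 546 CPM there and means of 11.6 to 44.0 CPM elsewhere (4.76 ± 0.17, adjusted p = 2.78e-29), and Ppp1r1b had 904, 939 and 927 CPM there (2.78 ± 0.12). Ppp1r1a was also among the 10 leading genes of a cluster of 22 fibrocyte-like nuclei, and the part of the 3278 to 4831 CPM of fibrocyte markers in basal cells was not tested. Akap13, an anchoring protein, was higher in basal cells (1.12 ± 0.30), but basal and spindle/root cells did not pass the test of their pair (adjusted p = 0.245) and spindle/root nuclei were highest. Spindle/root cells had the most Akap12, another anchoring protein, with 147, 148 and 88.7 CPM beside a mean of 0.267 CPM in intermediate cells (5.26 ± 0.47), and were highest in Gnas (0.92 ± 0.13) and Gnai3 (0.87 ± 0.27), the genes of a stimulatory and an inhibitory G protein. Gnas had another order in nuclei, with 386 CPM in basal, 363 in marginal and 282 in spindle/root nuclei. Of 6 genes of natriuretic peptide receptors and peptides and 3 nitric oxide synthases, none passed the filter.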

How the data were processed

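By the methods of the study, reads were aligned to the mm10 reference of 10x Genomics and UMIs counted with Cell Ranger under default settings, 2.0.0 in the submitters' processing notes. The methods name no other reference, though the nucleus data list 48816 genes and the cell data 27998. The values deposited for each capture were UMI counts of every gene in every barcode, not normalized, and whether reads on introns were counted is not given in the sources used here. Barcodes with fewer than 200 genes were removed (14, 29 and 99 from the captures of cells, 356 from that of nuclei), and so were Scrublet doublets (scanpy 1.11.5) at 0.8% per 1000 barcodes. This left 377, 1315 and 1463 cells, with a median mitochondrial share of 38.6%, 42.5% and 45.4%, and 9785 nuclei with 8.30%.

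Cells and nuclei were clustered separately in Seurat 5.3.0 (R 4.3.3) with 2000 variable genes, JackStraw components at p under 0.0001 and smart local moving at a resolution of 0.8. The genes described and the pathway list were kept out of the variable genes. A cluster was named where at least 3 markers of a class were raised 2-fold and no second class reached 0.67 of its mean log2 score, with clustering within mixed clusters. This naming rule was set after the clusters' markers had been seen. The genes, lists and markers were chosen with earlier results of these data known.

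UMIs were summed per capture and type (at least 5 cells), which gave 12 sums. The fit was made in edgeR 4.0.16 (TMM, filterByExpr, robust quasi-likelihood) with the capture as replicate block, and the Benjamini-Hochberg adjustment ran over all genes. The types of a capture come from the same suspension of mice, which pairs them. The correlation of their deviations was 0.00397 to 0.306 in 18 pairs. An F test over the 4 types, contrasts with the mean of the other 3 types and 6 pair contrasts were run. The fit was run on simulated sums of genes that passed the filter, with known changes in marginal cells only and no effect of capture. The outcome is not given here, and the fit without the filter was not simulated. No p-value came from single cells, and p-values measure only the spread between captures. Intervals for nuclei are exact Poisson intervals (scipy 1.17.1). Named with values were genes that passed a test and those of highest mean CPM, and for the pathway up to 5 per type, of which 1 gene is not reported here. Other genes with values were chosen after their values were seen. Gene positions are from GENCODE vM21 and upstream sequences from RefSeq, with a window for 41 of the 54 genes. Alternatives were DESeq2 1.42.0, no TMM scaling, all genes kept whatever their counts, a fit without replicate block, 1 capture left out at a time, resolutions of 0.4 and 1.2, doublets kept, the genes described allowed among the variable genes and, added after the data were seen, at least 10 cells per sum.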

Additional observations from a re-analysis of the deposited data

Results flagged for a closer look

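Only the 27 calls of a gene in a type were looked at here, not genes and types without a call. In 4 of these calls all 3 cell captures of the type lay on one side of the other types' mean and the nuclei lay on the other side. These are plain means of CPM, whereas the calls compare the types on the log scale. These differences between cells and nuclei were not tested, and the nuclei are a single library. Pde4a in spindle/root cells averaged 38.1 CPM beside 17.6 for the other 3 types, whereas spindle/root nuclei had 18.2 CPM beside 32.3, from 6 UMIs. Pde4d in intermediate cells averaged 79.7 CPM beside 59.2, and intermediate nuclei had 2392 CPM beside 2882. Only spindle/root nuclei were above intermediate nuclei in Pde4d, and marginal and basal nuclei were below them. Prkacb in spindle/root cells averaged 46.2 CPM beside 85.1, and spindle/root nuclei had 42.4 CPM beside 41.8, from 14 UMIs. In these nuclei 1 UMI is 3.03 CPM, which is more than that gap. Prkar2a in marginal cells averaged 102 CPM beside 55.0, and marginal nuclei had 42.7 CPM beside 44.9, which lies within the Poisson interval given above for these nuclei.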

How the results depend on the processing

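No call of a gene in a type changed direction under any alternative, and these calls rest on the cells. Without the filter on low counts, 3 genes in place of 6 were called in spindle/root cells. The share of all genes called there in that fit is not given here. In the same fit, 17 genes differed among the 4 types in place of 11. The 6 added were Adcy1, Gucy1b3, Gucy2f, Pde7b, Pde8a and Prkg1. They came from 22 described genes that entered only this fit, in which 30% of all 15468 genes passed. Leaving out each capture in turn gave 10 to 12 genes that differed among the types, 5 to 6 called in marginal cells, 6 to 10 in intermediate cells, 2 to 3 in basal cells, 2 to 3 in spindle/root cells, 25 to 35 pair calls, 15 to 18 pathway genes and 9 to 10 genes, in place of 11, highest in the same type in cells and nuclei. The counts fell to 6 in intermediate and 2 in basal cells without capture 2, and in spindle/root cells to 3, 2 and 3 without captures 1, 2 and 3. The cause was not tested, and the shares over all genes in the fits without a capture are not given here.

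Of the 27 calls of a gene in a type, 14 held under every alternative in which they were compared and 13 were lost under at least one. Adcy2 in intermediate cells, among the 14, was compared in 11 alternatives, and the other calls in 12. Which alternative lacked Adcy2 is not given here. Over all alternatives these calls were compared in 323 cases, of which 272 kept the call and 51 lost it. Without the replicate block, 11 genes differed among the types and 36 pair calls were made, in place of 37, and the one call of a gene in a type that was lost was Pde6d in marginal cells, so that 6 genes were called there. The shares over all genes without the block are not given here. Cells and nuclei came from different suspensions and share no number that could pair them. Without TMM scaling the median log2 fold change of all genes was -0.32 in intermediate, 0.18 in spindle/root and 0.11 in marginal cells. The described genes called in intermediate cells were then 3 higher and 7 lower in place of 4 and 6. Over all genes tested, 695 were then called higher and 2295 lower in intermediate cells, in place of 1186 and 1304. The depth of the spindle/root sums, where 1 UMI is 5.49 to 12.3 CPM, limits all statements on low genes in that type.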
